A study of Homo sapiens with 6 samples.

Results

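HOX genes are the homeobox genes of the HOXA, HOXB, HOXC and HOXD clusters, and they were taken here as every probe whose gene symbol is HOX, a letter from A to D and digits only. The rule found 36 probes for 29 genes, among 47230 probes and 20046 named genes on the array. HOXA is represented by 1 gene, HOXA2, HOXB by 10, HOXC by 9 and HOXD by 9. RefSeq lists 39 genes of this name pattern, and the other HOXA genes were not analysed here. For a gene with several probes the probe with the highest mean over all arrays was used, a choice in which a higher level in 1 group also counts.

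The cells are HN5, a human head and neck cancer line. The 3 parental arrays measured the erlotinib-sensitive line, and the 3 resistant arrays measured a derivative of it. Erlotinib inhibits the kinase of the epidermal growth factor receptor. The derivative had been passaged in rising erlotinib for 3 months up to 12.5 µM and then kept at 12.5 µM for 6 months. The labels describe 1 derived line and do not say whether the drug was present at harvest, so drug exposure, months in culture and resistance cannot be told apart. The labels call the arrays biological replicates but name no separate cultures, and the spread behind the p-values may therefore be technical in part. All levels are normalized log2 signals, and the number of arrays limits the precision.

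HOX proteins are transcription factors that bind DNA through a homeodomain and give cells a position along the body axis in the embryo. Genes with the same number in different clusters are paralogs, descended from 1 ancestral gene, and low numbers act toward the head and high numbers toward the tail. The proteins bind DNA together with cofactors of the TALE homeodomain class such as PBX and MEIS. Retinoic acid switches HOX genes on in the embryo, and Polycomb and Trithorax complexes hold them off or on. Adult epithelia and fibroblasts keep HOX patterns that reflect where in the body they came from.

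The same 11 HOX genes were above background on all 3 arrays of each group. They were HOXB5, HOXB6 and HOXB7, then HOXC4, HOXC6, HOXC8, HOXC9 and HOXC13, then HOXD3, HOXD10 and HOXD11. Background was taken as the mode of an array's values plus 3 SD of the values below the mode, a limit of 6.997 on average over the arrays. Another 2 genes, HOXD4 and HOXD9, crossed the limit on some arrays, and 16 stayed below it on all 6 arrays. The share above background was 37.9% of the HOX genes in both groups, beside 50.5% of all named genes in parental and 51.2% in resistant cells. No HOX gene was above background in 1 group and at background throughout the other.

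**Figure D1:**
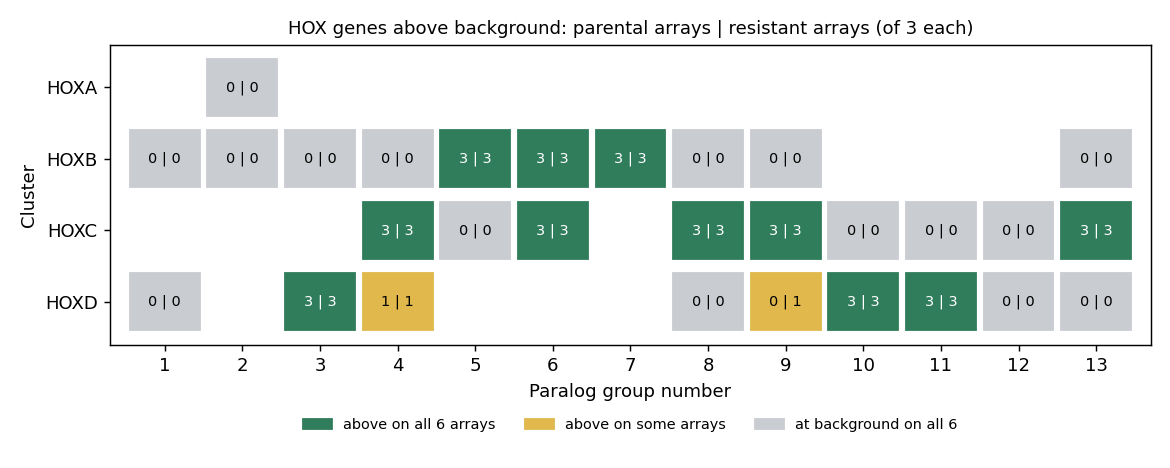
Each box is a measured HOX gene, placed by paralog group number (horizontal axis) and cluster (vertical axis). Its numbers count the parental and the resistant arrays above the background limit, of 3 each. Green boxes (11 genes) were above on all 6 arrays, yellow boxes (HOXD4 and HOXD9) on some and grey boxes (16 genes) on none; empty places hold no gene measured here.

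Along the chromosome the genes above background lay partly in runs. In HOXB, on chromosome 17, HOXB5, HOXB6 and HOXB7 are neighbours, and HOXB1 to HOXB4 on one side and HOXB8, HOXB9 and HOXB13 on the other were at background. In HOXC, on chromosome 12, HOXC4, HOXC6, HOXC8 and HOXC9 were above background, with HOXC5 at background among them. HOXC13, at the end of that cluster, was above background and separated from them by HOXC10, HOXC11 and HOXC12, which were at background. In HOXD, on chromosome 2, HOXD10 and HOXD11 are neighbours, while HOXD12, HOXD13, HOXD8 and HOXD1 were at background. HOXA2 was at background with both of its probes. By paralog number, 2 of 9 genes numbered 1 to 4 were above background in each group, 5 of 8 numbered 5 to 8 and 4 of 12 numbered 9 to 13. The 16 genes at background had values from 6.68 to 6.94 on the arrays, and values in this range have no order.

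HOXD4 and HOXD9 crossed the limit on some arrays, and HOXD3 was the lowest of the genes above it throughout. HOXD3 gave 7.12, 7.18 and 7.10 on the parental arrays and 7.14, 7.08 and 7.16 on the resistant arrays, just above it. HOXD4 gave 6.96, 6.85 and 7.06 against 7.04, 6.95 and 6.95, so 1 array of each group crossed it. HOXD9 gave 6.972, 6.900 and 6.899 against 7.04, 6.96 and 6.88, with 1 resistant array above. The groups overlap for all 3 genes, and HOXD4 and HOXD9 were not tested. With the limit at 5 SD HOXD3 dropped out and 10 genes remained above it in each group, and at 2 SD HOXD4 counted as above in resistant cells, where the number became 12.

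Resistant and parental arrays were compared with limma on 11065 genes above background on at least 3 of the 6 arrays, with Benjamini-Hochberg adjustment over all of them and a threshold of 0.05. All 11 tested HOX genes had been above background in both groups, so none entered through 1 group only. HOXB5 and HOXB6 (on 1 of its 2 probes) rose and HOXC8 and HOXD11 fell, 4 of 11, while 54.0% of all tested genes changed. For rises the counts are 2 of 11 beside 26.6% of all genes, and for falls 2 of 11 beside 27.5%. For 5 of the 11 the 2 groups of arrays were apart without overlap, beside 59.9% of all genes. In 3 of these the resistant arrays were the higher ones (29.2% of all genes) and in 2 the lower ones (30.7%). The median absolute log2 difference was 0.12 over the 11 genes and 0.18 over all genes, with medians of the signed difference of -0.04 and -0.0068. On the probes used, none of the 11 genes differed by more than 1.21-fold on the deposited scale. With the background mode subtracted none differed by more than 1.53-fold. Signals close to the floor are compressed, and the true folds of dim genes may be larger than these.

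**Figure D2:**
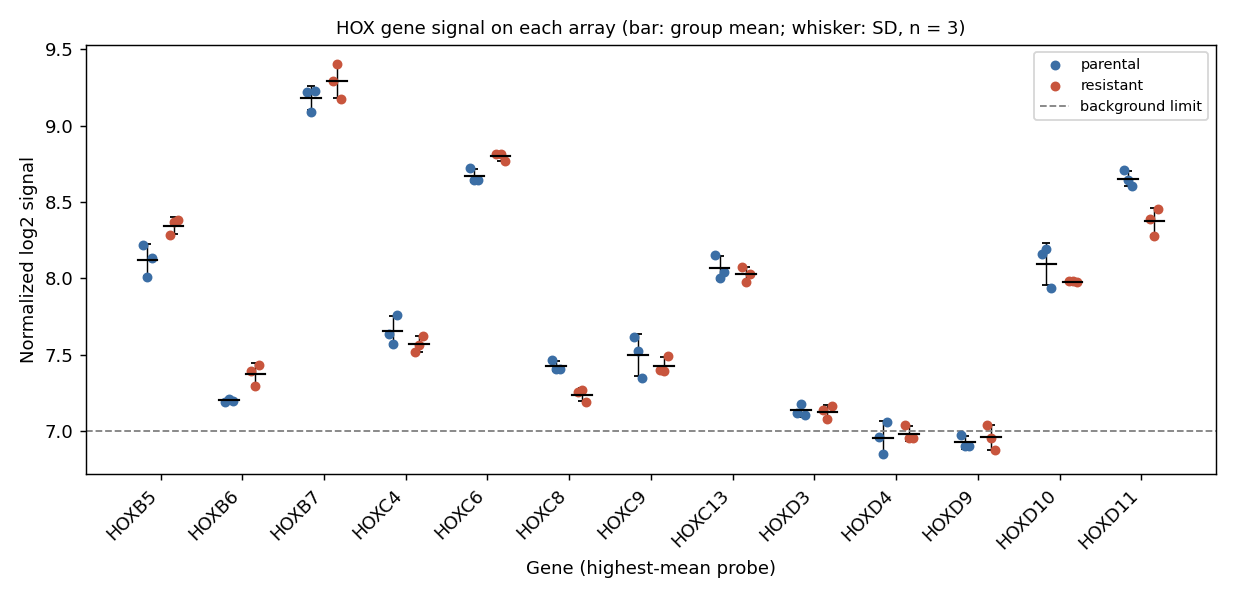
Points are the normalized log2 signal (vertical axis) of each HOX gene above the background limit on at least 1 array (horizontal axis), blue for the 3 parental and red for the 3 resistant arrays, with bars for group means, whiskers for SD and a dashed line for the limit of 6.997. HOXB5, HOXB6, HOXC6, HOXC8 and HOXD11 show no overlap between groups; heights are not comparable between genes because each has its own probe.

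HOXB5, HOXB6 and HOXB7 are the neighbouring central genes of the HOXB cluster. HOXB5, which in mouse helps set the shoulder level and acts in lung and enteric nervous system development, gave 8.22, 8.01 and 8.13 on the parental arrays and 8.28, 8.37 and 8.38 on the resistant arrays. All resistant arrays lay above all parental ones. The log2 difference was 0.22 (SE 0.0650, limma adjusted p = 0.00993), a 1.17-fold rise. Without parental replicate 2 the call was lost at a limma adjusted p of 0.0525, with a range of 0.00485 to 0.0525 over all alternatives. With the background mode subtracted the difference became 0.36, or 1.28-fold.

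HOXB6, expressed in blood precursors and in the developing limb and trunk, gave 7.19, 7.21 and 7.20 in parental cells and 7.39, 7.29 and 7.43 in resistant cells. These groups did not overlap either, and the parental arrays lay within a narrow band. The log2 difference was 0.17 (SE 0.0572, limma adjusted p = 0.0211). A second HOXB6 probe gave parental and resistant means of 7.23 and 7.21, a difference of -0.02 with overlapping groups (limma adjusted p = 0.778 over all probes). The rise therefore holds for 1 of 2 probes, and with their mean it was 0.08 (limma adjusted p = 0.196). It was also lost without parental replicate 1, resistant replicate 1 or resistant replicate 3 (limma adjusted p = 0.0511, 0.0603 and 0.0900), and the alternatives spanned 0.00471 to 0.196. With the background mode subtracted, the difference of the probe used was 0.60, or 1.51-fold. That probe was the brighter one over all arrays because of the resistant arrays, with a mean of 7.37 against 7.21. On the parental arrays it was the dimmer one, with 7.20 against 7.23.

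HOXB7, a gene studied as a growth-promoting factor in melanoma and breast cancer, gave 9.22, 9.09 and 9.23 in parental cells. The resistant arrays gave 9.29, 9.40 and 9.18. One resistant array lay inside the parental range, and the log2 difference of 0.11 did not pass (95% confidence interval -0.04 to 0.26, limma adjusted p = 0.187). It was 0.06 without resistant replicate 2, 0.07 without parental replicate 2 and 0.17 without resistant replicate 3.

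In the HOXC cluster 1 of 5 tested genes was called, and the fitted differences were above 0 for HOXC6 and below 0 for the other 4. HOXC8, a gene of the thoracic body level in mouse, gave 7.46, 7.41 and 7.40 in parental cells and 7.25, 7.27 and 7.19 in resistant cells. All resistant arrays lay below all parental ones. The HOXC8 log2 difference was -0.19 (SE 0.0554, limma adjusted p = 0.0119), a 1.14-fold fall. Without resistant replicate 3 the limma adjusted p was 0.0541, and the alternatives spanned 0.00291 to 0.0541. With the background mode subtracted the HOXC8 difference was -0.61, or 1.53-fold.

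HOXC6, often found at raised levels in prostate and other carcinomas, gave 8.72, 8.65 and 8.65 in parental cells and 8.81, 8.81 and 8.77 in resistant cells on its brightest probe. The arrays did not overlap, but the difference of 0.13 did not pass over all genes (95% confidence interval 0.0086 to 0.25 before adjustment, limma adjusted p = 0.0663). The other HOXC6 probes were far dimmer. The second probe went from a parental mean of 7.16 to a resistant mean of 6.99 and was above background on 2 of 3 arrays in each group. The third was above background on 1 parental array and the fourth on none. The mean of the 2 tested probes turned the HOXC6 difference to -0.024 (limma adjusted p = 0.770, alternatives 0.0519 to 0.770), so its direction depends on the probe.

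HOXC4, a gene active in lymphocytes and keratinocytes, gave 7.63, 7.57 and 7.76 against 7.52, 7.56 and 7.62. The groups overlapped and the difference was -0.08 (95% confidence interval -0.22 to 0.05, limma adjusted p = 0.286). It was -0.03 without parental replicate 3 and -0.13 without parental replicate 2. A second HOXC4 probe was at background on all 6 arrays. HOXC9 gave 7.62, 7.52 and 7.35 against 7.40, 7.39 and 7.49, with overlapping groups and a difference of -0.07 (95% confidence interval -0.22 to 0.09, limma adjusted p = 0.453). The HOXC9 difference was -0.0058 without parental replicate 1 and -0.14 without parental replicate 3. HOXC13, which in mouse acts in hair follicles, nails and the papillae of the tongue and directs keratin genes, gave 8.15, 8.001 and 8.04 against 8.07, 7.97 and 8.03. Its groups overlapped and the difference was -0.04 (95% confidence interval -0.17 to 0.09, limma adjusted p = 0.605).

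HOXC4 and HOXC5 have 1 and the same annotated upstream start in RefSeq (GRCh38.p14), although HOXC4 was above background and HOXC5 was not. The 250 bases before that start, on the plus strand at chr12:54016638-54016887, are identical for both genes and are shown for this reason, with CCAAT matches in capitals.
HOXC4: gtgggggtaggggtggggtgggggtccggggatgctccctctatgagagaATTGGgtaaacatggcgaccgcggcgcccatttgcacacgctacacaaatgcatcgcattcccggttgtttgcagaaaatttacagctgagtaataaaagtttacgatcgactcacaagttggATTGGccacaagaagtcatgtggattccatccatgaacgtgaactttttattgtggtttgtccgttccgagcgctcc
The stretch holds 2 matches to CCAAT, both on the reverse strand, beginning 200 and 77 bases before the start. Of 35114 RefSeq promoter windows of this length, 32.0% hold at least 1. Whether the probes of HOXC4, HOXC5 and HOXC6 tell the transcripts of these genes apart was not tested.

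In the HOXD cluster the 3 tested genes had fitted differences below 0, and HOXD11 passed. HOXD11, which in mouse shapes the forearm and the kidney together with its HOXA paralog, gave 8.71, 8.64 and 8.61 in parental cells. The resistant arrays gave 8.39, 8.28 and 8.45, all below the parental ones. The fall of HOXD11, a log2 difference of -0.28 (SE 0.0616, limma adjusted p = 0.00165) or 1.21-fold, was the largest of the 11 on the deposited scale and kept its call under all 17 alternatives (limma adjusted p = 0.00132 to 0.0121). With the background mode subtracted it was -0.40, or 1.32-fold, and HOXC8 and HOXB6 then had larger differences.

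HOXD10, its neighbour, is a target of the microRNA miR-10b in breast cancer cells. It gave 8.16, 8.19 and 7.94 in parental cells and 7.98, 7.98 and 7.97 in resistant cells. One parental array lay below all resistant ones, and the difference of -0.12 did not pass (95% confidence interval -0.27 to 0.03, limma adjusted p = 0.167). Without that array, parental replicate 3, the difference was -0.20 with a limma adjusted p of 0.0188, and the alternatives spanned 0.0188 to 0.467. HOXD3, given above by array, differed by -0.0082 (95% confidence interval -0.13 to 0.11, limma adjusted p = 0.913).

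The sequences before HOXD11 and HOXD10 are shown because these neighbours are the only HOXD genes well above the limit and both were fitted lower in resistant cells. They are 250 bases each from RefSeq (GRCh38.p14), on the plus strand at chr2:176107030-176107279 and chr2:176116528-176116777, and capitals mark the motif matches given below.
HOXD11: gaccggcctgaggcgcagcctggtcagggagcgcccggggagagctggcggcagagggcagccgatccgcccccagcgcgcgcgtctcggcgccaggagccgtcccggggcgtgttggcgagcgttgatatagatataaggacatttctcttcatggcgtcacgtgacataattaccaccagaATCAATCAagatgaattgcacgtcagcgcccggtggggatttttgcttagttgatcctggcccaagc
HOXD10: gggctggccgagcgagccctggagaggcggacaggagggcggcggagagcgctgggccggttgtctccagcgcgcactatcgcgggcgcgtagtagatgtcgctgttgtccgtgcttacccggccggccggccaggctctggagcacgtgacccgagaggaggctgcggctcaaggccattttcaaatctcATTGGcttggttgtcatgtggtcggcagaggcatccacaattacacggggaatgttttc
Both strands of the 3 sequences shown were searched for TGATNNAT, a composite site of PBX and HOX proteins, for the TATA box TATAAA, for CCAAT and for AGGTCA, a half-site of nuclear receptors that include the retinoic acid receptors. HOXD11 holds 1 match to TGATNNAT, on the reverse strand and beginning 67 bases before the start, and HOXD10 holds 1 match to CCAAT, also on the reverse strand, 59 bases before it. The first motif occurs in 6.47% and the second in 32.0% of RefSeq windows of this length. Neither TATAAA nor AGGTCA, found in 10.7% and 12.1% of windows, occurs in any of the 3. The matches do not overlap each other, and a match is a string of letters, not a site shown to be bound. RefSeq windows were matched for 12 of the 29 HOX genes.

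**Figure D3:**
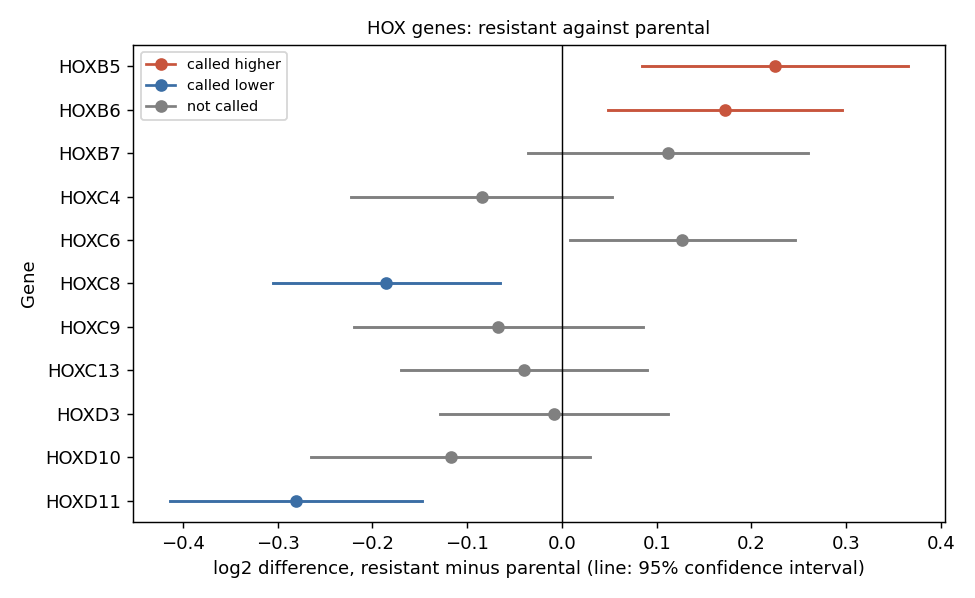
Points are log2 differences, resistant minus parental (horizontal axis), of the 11 tested HOX genes (vertical axis), with lines for 95% confidence intervals from limma before adjustment. HOXB5 at 0.22 and HOXB6 at 0.17 are red (called higher), HOXC8 at -0.19 and HOXD11 at -0.28 are blue (called lower) and the other 7 are grey (not called).

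By cluster, the fitted differences were above 0 for all 3 HOXB genes, for 1 of 5 HOXC genes and for 0 of 3 HOXD genes, beside 48.9% of all tested genes. Their medians were 0.17, -0.07 and -0.12. These values depend on the probes used. The HOXB median is that of the HOXB6 probe used, and the second HOXB6 probe differed by -0.02. HOXC6, the 1 HOXC gene above 0, turned to -0.024 with the mean of probes. Whether the clusters differ from one another was not tested. By paralog number, the 5 tested genes numbered 5 to 8 held both rises and 1 fall. The 4 tested genes numbered 9 to 13 held the other fall and no rise, and the 2 numbered 1 to 4 held neither. Over all tested genes 26.6% rose and 27.5% fell, and whether the blocks differ was not tested. The blocks lack HOXA genes other than HOXA2, which was at background. Standard errors of the 11 genes ran from 0.0549 to 0.0705, beside a median of 0.0621 over all genes.

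All arrays measured the HN5 cancer line or its derivative, and the labels name no other cell type. In arrays of bulk RNA, fewer cells of a type and less RNA per cell cannot be told apart. HOX levels also vary between cell types, so markers of cell types are given here. Of 9 squamous epithelial markers 6 had a named probe, and these (KRT5, KRT14, CDH1, EPCAM, DSG3 and SFN) were above background on all arrays. All 6 fell, beside 27.5% of all tested genes. Their summed log2 signal went from between 69.8 and 70.6 on the parental arrays to between 65.2 and 66.0 on the resistant arrays. Of 9 fibroblast markers 4 were tested, and all 4 rose (COL1A1, COL1A2, DCN and LUM), beside 26.6% of all tested genes. Of these 4, 3 passed the filter through the resistant arrays only. The summed log2 signal of the 9 went from between 62.1 and 62.2 to between 67.3 and 67.5. Single genes rose unevenly, DCN at least 5.46-fold, LUM at least 2.34-fold, COL1A2 at least 1.10-fold and COL1A1 1.46-fold. COL3A1 and FAP went from 0 of 3 parental to 2 of 3 resistant arrays above background, and PDGFRA, PDGFRB and THY1 were at background on all arrays. Of 8 leukocyte markers 3 were tested, and 1 of them, CD68, rose. CD14 was above background on all 6 arrays and CD79A on 2 of 3 in each group, and neither passed (limma adjusted p = 0.222 and 0.376). MS4A1 was above background on 1 resistant array, and PTPRC, CD3E, LYZ and NKG7 were at background throughout. The summed log2 signal of all 8 leukocyte markers was 59.2 to 59.3 on parental and 60.7 to 60.8 on resistant arrays. Within that sum CD68 went from a parental mean of 10.07 to a resistant mean of 11.45. Of 7 endothelial markers 1 was tested, PECAM1, and it was called higher. PECAM1 was at background on all parental arrays and passed the filter through the resistant arrays only, so its fold is a lower bound. The other 6 were at background on all arrays (47.6 in each parental sum of the 7, 48.1 in each resistant sum). The part of these markers in the HOX differences was not tested.

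HOX proteins bind DNA with TALE partners, and 8 of the 10 TALE genes with a named probe were tested. Of these 4 fell and 1 rose, with a median log2 difference of -0.15, beside 27.5% and 26.6% of all genes falling and rising. MEIS2 fell by 0.38 (SE 0.0561, limma adjusted p = 6.93e-05), TGIF2, a TALE repressor, by 0.38 and PKNOX1, a partner of PBX proteins, by 0.35. A second PKNOX1 probe differed by -0.01. PBX2 fell by 0.20 and PBX4 rose by 0.16, and each of these calls was lost under several alternatives (limma adjusted p = 0.0162 to 0.166 across PBX2 settings and 0.0265 to 0.213 across those of PBX4). PBX3 differed by -0.11 (limma adjusted p = 0.0998). MEIS3 and PKNOX2 were at background.

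Retinoic acid acts on HOX genes through RAR and RXR receptors. Of 18 retinoid and CDX genes with a named probe 7 were tested, and 5 fell and 1 rose, beside 27.5% and 26.6% of all genes, with a median log2 difference of -0.44. RXRA, the common receptor partner, fell by 1.19 (SE 0.0810, limma adjusted p = 4.21e-08), and CRABP2, which carries retinoic acid to the nucleus, fell by 0.99 (SE 0.0601, limma adjusted p = 1.34e-08). DHRS3, which reduces retinal, fell by 0.72, the retinoic acid hydroxylase CYP26B1 by 0.44 and the receptor RARA by 0.27. RXRB rose by 0.29 with overlapping groups, a call lost without parental replicate 2 or resistant replicate 1 or with the background mode subtracted (limma adjusted p = 0.0651, 0.0583 and 0.0580; all alternatives 7.72e-04 to 0.0651). CDX1, CDX2 and CDX4, homeobox genes that switch on HOX genes in the embryo, were at background on all arrays.

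Of 22 tested chromatin regulators of HOX genes 6 rose and 6 fell, shares near the 26.6% and 27.5% of all genes, with a median log2 difference of 0.0093. EZH2, the histone methyltransferase of Polycomb complex 2, fell by 0.90 (SE 0.0621, limma adjusted p = 4.86e-08) and all 3 of its probes fell. SUZ12, a subunit of the same complex, rose by 0.51 (SE 0.0557, limma adjusted p = 4.59e-06). CBX2, a Polycomb complex 1 subunit, fell by 0.64 on its brighter probe and differed by -0.03 on the other, while PHC2 of the same complex rose by 0.36. CTCF, which sets boundaries inside HOX clusters, fell by 0.49. WDR5, a subunit of Trithorax-type methyltransferase complexes, fell by 0.34. KMT2A, the methyltransferase itself, differed by -0.0093 (limma adjusted p = 0.904).

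**Figure D4:**
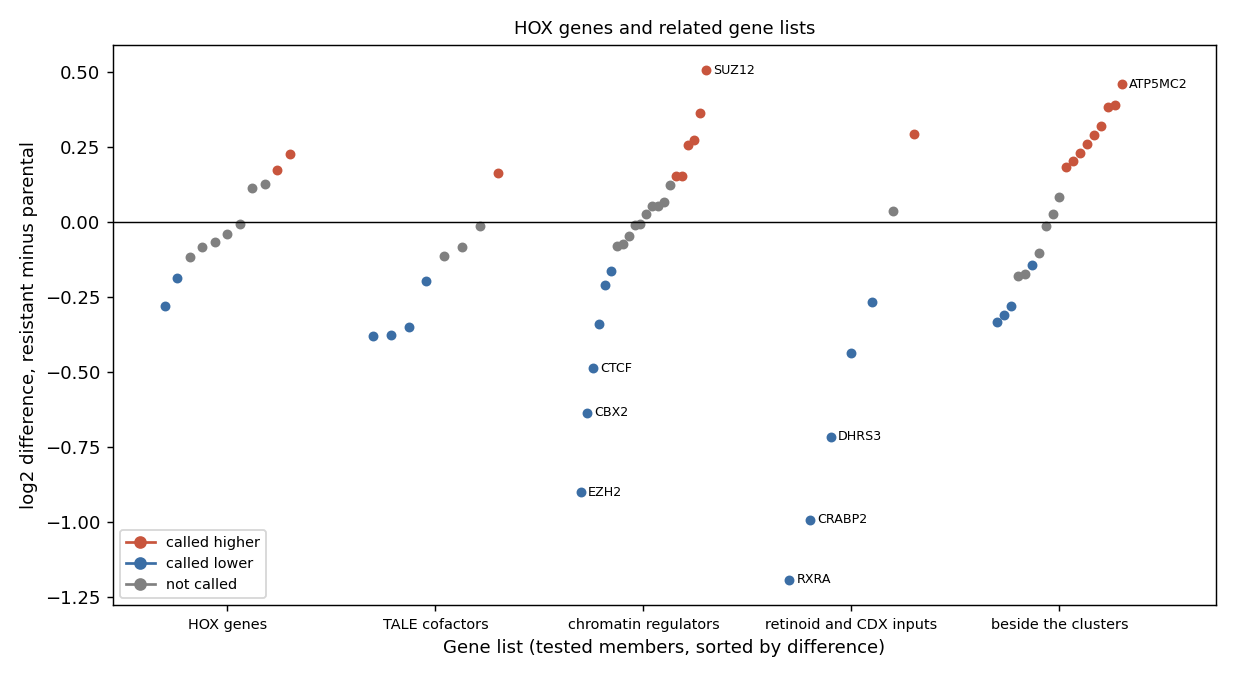
Points are log2 differences, resistant minus parental (vertical axis), of the tested members of 5 gene lists (horizontal axis), red where called higher, blue where called lower and grey where not called. The HOX genes lie between -0.28 and 0.22, while retinoid genes reach -1.19 (RXRA) and chromatin regulators run from -0.90 (EZH2) to 0.51 (SUZ12).

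The noncoding RNAs of the HOX clusters were dim. Of the 23 listed, 8 had a named probe and 0 were tested. HOTTIP was above background on 1 array of each group, HOXA11-AS on 1 resistant array, and HOTAIR and the 5 microRNA genes MIR10A, MIR10B, MIR196A1, MIR196A2 and MIR196B on none.

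Genes beside the clusters went both ways. Of 19 tested, 9 rose and 4 fell, beside 26.6% and 27.5% of all genes, with a median log2 difference of 0.08. The 9 include NFE2, which passed the filter through the resistant arrays only. With the background mode subtracted 6 rose and 3 fell. Without parental replicate 2 the counts were 6 and 5, and with the mean of probes they were 9 and 6. Beside HOXB, where HOXB5 rose and HOXB6 rose on 1 of 2 probes, CALCOCO2 rose by 0.38 (limma adjusted p = 4.58e-05). CBX1 rose by 0.20 and NFE2L1 fell by 0.28, each with overlapping groups (limma adjusted p = 0.0485 and 0.0164). SKAP1, PRAC1, PRAC2 and TTLL6 were at background. Beside HOXC, where HOXC8 fell, SMUG1 rose by 0.29 (limma adjusted p = 7.66e-04) and HNRNPA1, on the same side, fell by 0.31. NFE2, also on the side of SMUG1, went from background to 7.04 in resistant cells, at least 1.03-fold. On the other side of HOXC, ATP5MC2 rose by 0.46 on 1 probe and differed by -0.04 on another. Beside HOXD, where HOXD11 fell, LNPK rose by 0.39 (limma adjusted p = 0.00438) and ATF2 by 0.26. MTX2, the tested gene closest to HOXD, differed by -0.10 on its brightest probe (limma adjusted p = 0.169) and by -0.45 on another. Beside HOXA, HIBADH fell by 0.33 and JAZF1 by 0.14, and TAX1BP1 rose by 0.23 and SNX10 by 0.18.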

How the data were processed

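For 47230 probes on each of 6 Illumina arrays the authors deposited a normalized log2 signal. The software and the normalization behind it are nowhere stated in the sources used here. Base 2 was read from the values, which ran from 6.51 to 13.76 on every array. The arrays' sorted values differed by at most 0.00434 at any rank, as quantile normalization leaves them, which makes every difference a relative one. Another table's 12 per-sample columns (signals and detection p-values) carry no sample name and were not used.

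Gene names came from the platform annotation, in which 30112 probes had 1 symbol, 8 several and 17110 were not listed. Entrez IDs found for 30073 probes in the RefSeq gene table changed 0 symbols. The files name no genome build, so only promoter windows carry coordinates, those of RefSeq's own GRCh38.p14.

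Between 38.9% and 39.1% of probes exceeded the background limit on each array. Within-group correlations across probes were 0.9965 to 0.9970 and between-group ones 0.978 to 0.980. limma 3.58.1 in R 4.3.3 (lmFit, eBayes, no replicate block; 4 residual and 9.10 prior degrees of freedom) was tested on simulated data. Where a group was at background on all arrays, the fold is at least the brighter mean over the mean limit. The background-subtracted values take the array's mode away on the linear scale, floored at the limit. In each gene list up to 6 tested genes with the smallest adjusted p are named; KMT2A, MTX2, the other called genes beside the clusters, the markers and genes at background were named after their values were seen. The HOX genes and the lists were chosen with earlier results of these data known.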

Additional observations from a re-analysis of the deposited data

How the results depend on the processing

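HOXD11 kept its direction and call under all 17 alternatives. Over the 11 tested HOX genes, 175 of 187 alternative values kept direction and call, 6 lost a call and 1 gained one. The other 5 turned in sign, all of genes not called. Changes of the filter, the background limit or the variance trend, and the replicate block, left the differences of HOX and list genes as they were. Under these alternatives only the call could change. The mean of probes could move only HOXB6 and HOXC6 among the HOX genes. With the mean of probes 1 HOX gene was called higher in place of 2. Leaving out 1 array at a time, 1 to 2 HOX genes were called higher and 1 to 3 lower; the arrays behind each lost call are named with the genes. The HOXC6 difference turned to -0.024 with the mean of probes and that of HOXD3 to 0.0018 with cyclic loess. Leaving out 1 array at a time, HOXC13 spanned -0.072 to 0.0032 and HOXD3 -0.026 to 0.015. The cause was not tested. Leave-one-out fits have fewer arrays. The list genes followed 1 by 1 were the 24 with the smallest adjusted p, up to 6 in each list. Of their 403 values 390 kept direction and call and 13 lost a call, all of PBX2, PBX4 or RXRB. The other named list genes, such as CBX1 and NFE2L1, are not among the 24, and calls beside the clusters were lost under some alternatives. Subtracting the background mode enlarged the difference over 1.5 times for 8 of the 11 HOX genes and 12 of the 24 list genes, with CRABP2 at -1.62, MEIS2 at -0.67 and ATF2 at 0.66. The mean of probes shrank those of PKNOX1, CBX2 and ATP5MC2 over 1.5 times, as did leaving out parental replicate 3 for PBX4 and resistant replicate 3 for PBX2. A background limit from the shortest interval, chosen after seeing the data, gave 11 HOX genes above background in each group. Same-numbered arrays deviated from their group means with correlations of 0.15, 0.0030 and 0.09, so the numbers were not taken as pairs; with the replicate block 2 HOX genes were called higher, 2 lower and 6085 genes in all, beside 5980 without it. Signal near background limits what can be said of HOXD3, HOXD4, HOXD9 and the 16 genes below the limit.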
